A study of Caenorhabditis elegans with 6 samples.

Results

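DamID of the strain coded PMW123 over the strain coded PMW124 was examined in male Caenorhabditis elegans, library by library, for the single X and the autosomes in 100 kb bins. The comparison uses 4 of the 12 count columns of the series, 2 libraries of PMW123 males and 2 of PMW124 males, chosen by strain code and sex, and covers the 1005 nuclear bins of the 1006 in the table. The mitochondrial bin is left out. Of the nuclear bins, 178 lie on X and 827 on the 5 autosomes.

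In DamID, the bacterial adenine methyltransferase Dam is fused to a protein and marks the adenine of GATC sequences that the fusion reaches. Marked sites are cut with DpnI, ligated to adapters, amplified and sequenced. A lamin fusion marks DNA near the nuclear envelope, where lamin filaments line the inner membrane, and LMN-1 is the nuclear lamin of this worm. A fusion to green fluorescent protein, which has no chromatin partner of its own, marks DNA by how reachable it is and serves as the denominator. In C. elegans the arms of the autosomes are known to lie near the lamina more than the centres do. Males carry a single X, and hermaphrodites carry a pair whose transcription is lowered by dosage compensation.

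The labels describe PCR-amplified genomic DNA from whole L4 larvae, kept at 25 °C on E. coli, with 20 animals per sample and 10 in a tube. The 3 constructs are Dam joined to lmn-1, to gfp or to mel-28, each driven by the hsp-16.41 heat-shock promoter without heat shock, in males and in hermaphrodites. Neither label nor header ties a strain code to a construct. PMW124 is the denominator of the authors' deposited ratios, which is the place of gfp, and PMW123 is taken here as lmn-1 without a label that says so, so the strains are called by code. The groups are PMW123 males and PMW124 males, and, for the test between sexes, PMW123 hermaphrodites and PMW124 hermaphrodites, with 2 libraries each. Nothing says that the 2 libraries of a group came from separate cultures, so p-values measure only the spread between these libraries, which may be technical. A bin averages over all cells of whole animals, so fewer cells in contact and less methylation per cell cannot be told apart.

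The libraries were shallow and uneven. PMW123 males gave 54168 and 22106 nuclear reads, against 28947 and 89872 in PMW124 males. On X this came to 3214 and 1357 reads in PMW123 males, against 3125 and 6586 in PMW124 males. The median X bin held 11 and 3 reads in PMW123 males, against 8.5 and 25 in PMW124 males, while the median autosomal bin held 35 and 12 reads in PMW123 males, against 16 and 74 in PMW124 males. Of the 178 X bins, 4 and 26 had no read in PMW123 males, against 5 and 0 in PMW124 males. At least 1 of the 4 libraries had under 10 reads in 148 X bins (83.2%), compared with 434 autosomal bins (52.5%). A count of 0 allows up to 3 reads, or 0.589 and 1.45 reads per 10000 autosomal reads in PMW123 males, against 1.16 and 0.360 in PMW124 males. The reads carry no molecular identifiers, so intervals and floors cover counting error only. The 10 most-read bins took 19.7% and 23.8% of nuclear reads in PMW123 males, against 19.6% and 14.3% in PMW124 males.

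X took a smaller part of the reads in PMW123 males than in PMW124 males. Its share of nuclear reads was 5.93% (95% exact Clopper-Pearson interval 5.74 to 6.14) in library 1 and 6.14% (5.83 to 6.46) in library 2 of PMW123 males, against 10.8% (10.4 to 11.2) in library 1 and 7.33% (7.16 to 7.50) in library 2 of PMW124 males. Both PMW123 libraries lay below both PMW124 libraries, and the 2 PMW124 libraries lay farther apart than their intervals. Reads per X bin over reads per autosomal bin were 0.293 and 0.304 in PMW123 males, against 0.562 and 0.367 in PMW124 males. On the log2 scale these levels averaged -1.75 ± 0.037 in PMW123 males and -1.14 ± 0.43 in PMW124 males (SD, n = 2 each). The difference of -0.61, a fold of 0.657, had p = 0.333 in a two-sided exact permutation test, the smallest p that 2 against 2 allows. Same-numbered libraries differed by -0.94 and by -0.27, so the size rests on PMW124 library 1. The direction rests on the autosomal reference: measured against the autosomal centres (the middle of 3 equal parts of each chromosome), X was higher in PMW123 males by 0.35.

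**Figure D1:**
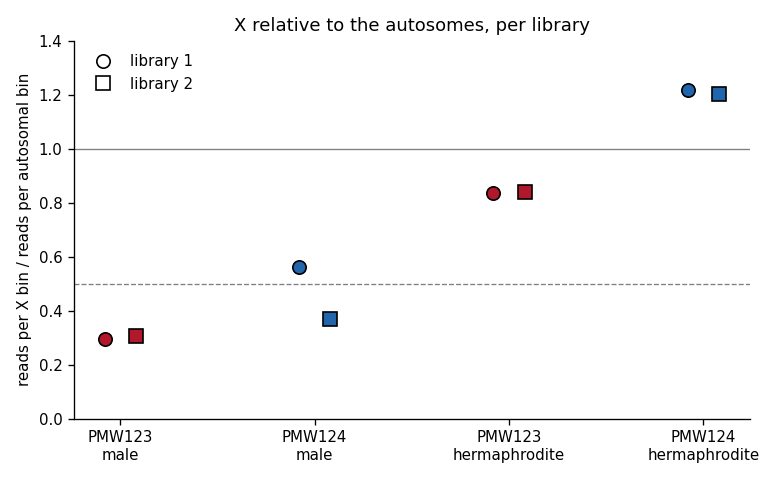
Reads per X bin over reads per autosomal bin in each library (vertical axis, linear from 0), with PMW123 in red, PMW124 in blue, males on the left and hermaphrodites on the right; the solid and dashed lines mark 1 and 0.5. The PMW123 males sit at 0.293 and 0.304, below the PMW124 males at 0.562 and 0.367.

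Divided by the mean of the 2 hermaphrodite libraries of the same strain, this X over autosome level was 0.351 and 0.364 in PMW123 males, and 0.465 and 0.304 in PMW124 males. The PMW124 males enclosed the PMW123 males on this measure. The X difference between strains was -0.61 in males and -0.53 in hermaphrodites. The difference of the 2 was -0.074 (exact permutation of strain labels within each sex, two-sided p = 1.0, smallest possible 0.0556). This permutation assumes no strain difference in either sex, rather than the same difference in both, so it cannot decide whether the sexes differ. A sex difference of the X level was thus not tested. The value of -0.074 turned to 0.23 without PMW124 male library 1.

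Within X, the left end differed least between the strains. X was cut into 4 equal parts. The leftmost, of 45 bins, held 5.43 and 6.31 reads per bin per 10000 autosomal reads in PMW123 males, against 10.7 and 5.83 in PMW124 males, and the groups overlapped. Its log2 level differed by -0.43 (exact permutation p = 0.667), and by 0.0049 without PMW124 male library 1. The rest of X differed by -0.71, a fold of 0.609, without overlap (exact permutation p = 0.333, the smallest possible). Of the 4 parts, the third was the lowest in PMW123 males, with 2.27 and 1.68 reads per bin per 10000, against 3.83 and 3.34 in PMW124 males. Against the autosomal centres the leftmost part was higher in PMW123 males by 0.52 and the rest by 0.24.

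Counts were tested in 1 Mb windows of 10 bins to gain reads, with edgeR's quasi-likelihood test and Benjamini-Hochberg adjustment over all 101 windows. At an adjusted p under 0.05, 10 windows were higher in PMW123 males (9.90%) and 31 were lower (30.7%). With TMM scaling the split was 11 higher and 18 lower. On X, 8 of 18 windows were lower and none was higher. An unadjusted p under 0.05 was found in 9 of 18 X windows, where over all 101 windows 47 had one. DESeq2 called 4 X windows lower and TMM scaling 2, again with none higher. Without overlap between the groups, 15 X windows were lower and 1 was higher, where over all windows 44 (43.6%) were lower and 31 (30.7%) higher. Leaving out a library leaves 1 in its group, so the spread then comes from the other group, the lone library is assumed to vary like it, and calls can be lost with the degrees of freedom while the fold stays. The count of 8 X windows became 7 without PMW123 male library 1, 1 without PMW123 male library 2, 0 without PMW124 male library 1 and 3 without PMW124 male library 2. The median log2 fold change of the X windows was -0.70 with all libraries, -0.63 without PMW123 male library 1, -0.75 without PMW123 male library 2, -0.46 without PMW124 male library 1 and -1.04 without PMW124 male library 2. Without PMW124 male library 1 no X window had an unadjusted p under 0.05.

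The strongest X windows lay next to each other. The window at 6000001 to 7000000 held 1.63 and 0.675 reads per bin per 10000 in PMW123 males, against 3.87 and 3.05 in PMW124 males (log2 fold change -1.50, SE 0.42, edgeR adjusted p = 0.00262). The window at 4000001 to 5000000 held 3.55 and 4.96 in PMW123 males, against 15.3 and 7.53 in PMW124 males (log2 fold change -1.43). The window between them had 0.864 and 1.16 in PMW123 males, against 2.71 and 2.40 in PMW124 males (log2 fold change -1.36). In none of these windows did the groups overlap. With the library number added to the fit, the window at 4000001 lost its call. TMM scaling took the call from the window at 5000001, as did adding library numbers crossed between the strains. Over the alternatives, log2 fold changes ranged from -2.34 to -1.08 at 6000001, from -1.87 to -0.84 at 4000001 and from -1.56 to -1.135 at 5000001. The other lower windows started at 2000001, 9000001, 10000001, 11000001 and 13000001, with log2 fold changes of -0.61, -1.33, -1.18, -1.13 and -1.01.

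The leftmost X windows did not go the same way. The window at 1000001 to 2000000 held 5.16 and 5.83 reads per bin per 10000 in PMW123 males, against 4.92 and 3.35 in PMW124 males, with a log2 fold change of 0.42 that did not pass (edgeR adjusted p = 0.470). The first window had 3.75 and 3.52 in PMW123 males, against 3.56 and 2.53 in PMW124 males (log2 fold change 0.27, edgeR adjusted p = 0.640). These are the 2 X windows with a value above 0.

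**Figure D2:**
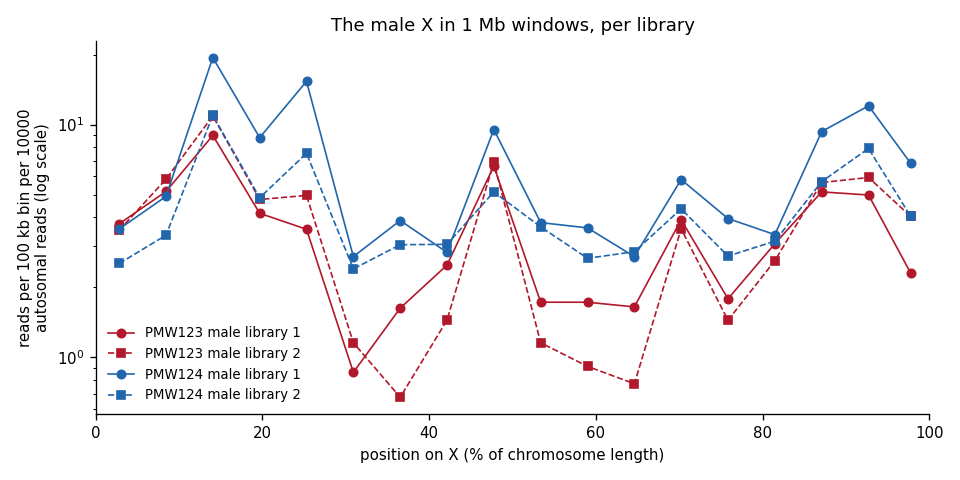
Reads per 100 kb bin per 10000 autosomal reads (vertical axis, log scale) in the 18 windows of the male X, along the chromosome in percent of its length, for PMW123 (red) and PMW124 (blue), with library 1 solid and library 2 dashed. PMW123 drops to its lowest values left of the middle and again right of it, while both PMW124 libraries stay at 2.40 or more; PMW124 library 1 lies highest at most positions.

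Single X bins were thin. Of 172 X bins with a mean of at least 5 reads, edgeR called 1 higher and 11 lower (6.40%) in PMW123 males, where over all 994 bins tested 8 were higher (0.805%) and 55 lower (5.53%). The lower share on X was thus close to the background. Without overlap between the groups, 16 X bins were higher and 73 lower, where over all bins 221 (22.2%) were higher and 333 (33.5%) lower. The count of X bins was 0 without PMW123 male library 1 and 3 without PMW123 male library 2. TMM scaling left 2 of 172 X bins called and DESeq2 1 of the 51 X bins it tested. Over all 820 bins it tested, DESeq2 called 5 higher and 15 lower. The X bin that was higher, at 1700001 to 1800000, had 67 and 33 reads in PMW123 males, against 12 and 39 in PMW124 males, or 13.2 and 15.9 per 10000 against 4.65 and 4.68. Its log2 fold change was 1.62 (SE 0.47, edgeR adjusted p = 0.0493), just inside the threshold, and it was also higher in hermaphrodites (log2 fold change 1.31). Its call was lost with DESeq2, with a replicate block (the library number added to the fit) and without either PMW123 male library.

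2 X bins that passed had no PMW123 male read. The bin at 11900001 to 12000000 had 0 and 0 reads in PMW123 males, against 11 and 33 in PMW124 males (edgeR adjusted p = 0.0106). With PMW123 set at a floor of 3 reads over the group, it was 9.64-fold lower. The bin at 5200001 to 5300000 had 0 and 0 reads in PMW123 males, against 8 and 17 in PMW124 males (edgeR adjusted p = 0.0215), 5.48-fold lower by the same floor. These folds take the PMW124 reads as observed, without their counting error, so they are no strict lower bounds. The bin at 10500001 to 10600000 had 1 and 0 reads in PMW123 males, against 14 and 11 in PMW124 males (edgeR adjusted p = 0.0488). All 3 lost the call without PMW123 male library 1. In the order named, they kept it under 10, 8 and 6 of 11 alternatives. TMM scaling took it from the bins at 5200001 and 10500001, and testing without a count filter from that at 10500001. DESeq2 and the filter at a mean count of 20 gave no adjusted p for these bins.

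On the autosomes the centres were lower and parts of the arms higher. Counts are scaled to the autosomal total, so lower centres and higher arms are not independent. Among bins of the autosomal centres, 40 of 274 (14.6%) were lower and none was higher. In the arms, the other 2 of the 3 parts, 7 of 548 (1.28%) were higher and 4 (0.730%) lower. Over all bins 0.805% were higher and 5.53% lower. An unadjusted edgeR p under 0.05 was found in 112 of 274 centre bins and 91 of 548 arm bins, where over all 994 bins 234 had one. In windows, 17 of 27 centre windows (63.0%) were lower and none higher. Of 56 arm windows, 10 (17.9%) were higher and 6 (10.7%) lower, where over all windows 9.90% were higher and 30.7% lower. All 5 centre windows of chromosome II and all 4 of chromosome III were lower. Chromosome V had 7 of the 10 higher windows, all in its arms, with 3 centre windows lower.

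**Figure D3:**
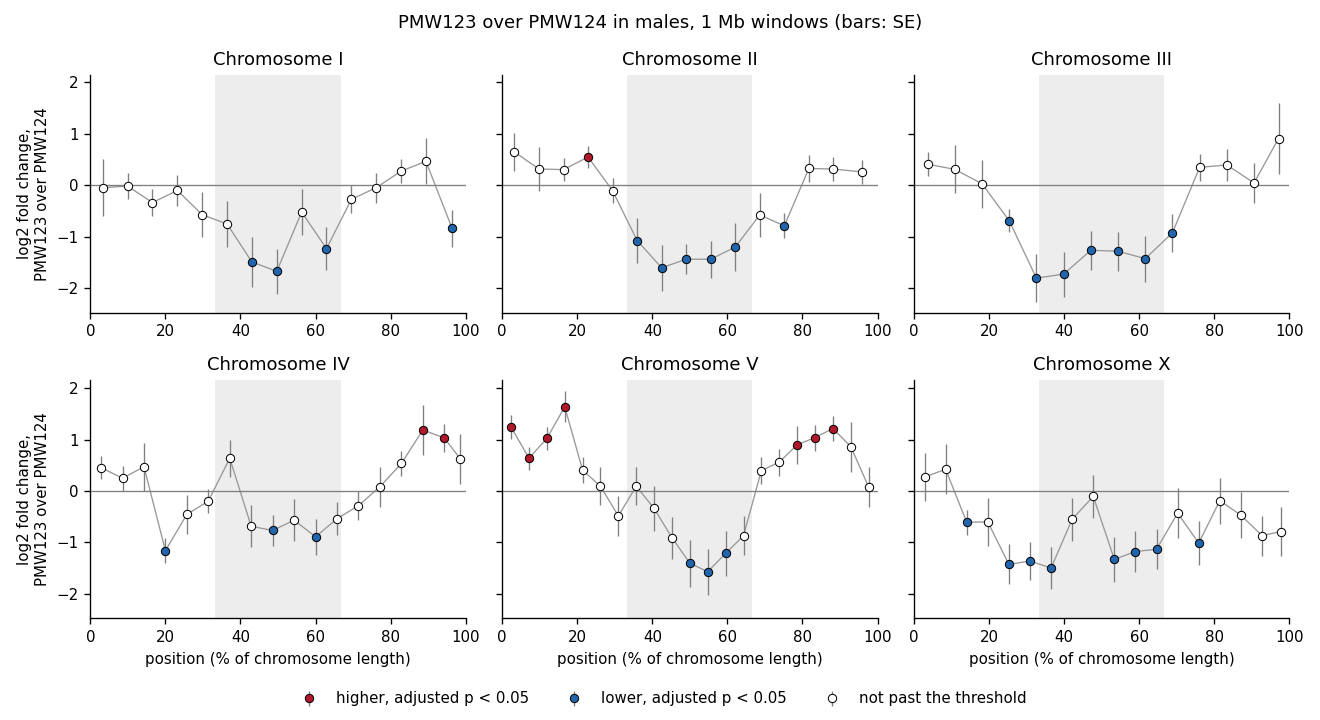
Log2 fold change of PMW123 over PMW124 in males (vertical axis, bars are SE) in 1 Mb windows along each chromosome, in percent of its length; the centre is shaded, red points are higher and blue points lower at an adjusted p under 0.05, and open points did not pass. Centres of the autosomes dip below 0, the arms of V rise above 0, and X lies below 0 except at its left end.

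The highest window was at 3000001 to 4000000 on chromosome V, with 43.8 and 46.9 reads per bin per 10000 in PMW123 males, against 14.8 and 14.3 in PMW124 males (log2 fold change 1.64, SE 0.30, edgeR adjusted p = 7.59e-06). Most of its reads came from the bin at 3100001 to 3200000, among the 10 most-read. That bin held 1684 of 2231 and 812 of 972 reads in PMW123 males, against 249 of 383 and 701 of 1191 in PMW124 males. The window was not tested without that bin. The first window of V had 23.3 and 23.3 in PMW123 males, against 11.2 and 8.66 in PMW124 males (log2 fold change 1.24). On the right arm of V, the windows starting at 18000001 and 17000001 had log2 fold changes of 1.21 and 1.04. The right arm of IV was higher too, by 1.19 at 15000001 to 16000000 and by 1.03 in the next window. All values of PMW123 males lay above those of PMW124 males in these windows. Without PMW123 male library 2 the windows of V and IV with the 5 highest values all lost their call, and without PMW123 male library 1 all but the highest did. The window of IV at 15000001 also lost it without PMW124 male library 2 and with the replicate block. Their fold changes changed little: without PMW123 male library 2 the highest window had 1.59, the first window of V 1.24 and the window of IV at 15000001 1.27.

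The lowest window was at 4000001 to 5000000 on chromosome III, with 3.38 and 2.12 reads per bin per 10000 in PMW123 males, against 8.91 and 10.6 in PMW124 males (log2 fold change -1.80, SE 0.46, edgeR adjusted p = 0.00124). Its middle lies 32.6% along III, so it counts as a window of the left arm, at the border with the centre. The next window of III was lower by a log2 fold change of -1.73. The centres of I, II and V had minima of -1.67, -1.60 and -1.57 in the windows starting at 7000001, 6000001 and 11000001. These 5 lowest windows all lost their call with the replicate block, in which all libraries are kept. They also lost it without either PMW123 library and without PMW124 male library 2. Their fold changes kept their sign (-1.08 to -2.29 over the alternatives). Over all windows, the 41 calls became 8 without PMW123 male library 1, 1 without PMW123 male library 2, 50 without PMW124 male library 1 and 19 without PMW124 male library 2.

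Single autosomal bins reached larger fold changes on fewer reads. The bin at 15400001 to 15500000 on IV had 90 and 35 reads in PMW123 males, against 10 and 14 in PMW124 males (log2 fold change 2.80, SE 0.53, edgeR adjusted p = 0.00945), and it kept its call under all 13 alternatives. The bins of IV at 3600001 and 16800001 followed with 2.14 and 2.06, that of V at 17400001 with 1.87 and that of I at 100001 with 1.66, and these 4 lost their call without either PMW123 male library, with fold changes of 1.56 to 2.23 on the log2 scale. Those of V and I also lost it with DESeq2 (adjusted p = 0.0591 and 0.0625). The replicate block took the call from the bins of V at 17400001, I at 100001 and IV at 16800001. At the other end, the bin at 7000001 to 7100000 on I had 4 and 1 reads in PMW123 males, against 27 and 123 in PMW124 males (log2 fold change -4.17, SE 0.73, edgeR adjusted p = 0.00642). The bins at 7500001 on I, 5800001 on III and 8200001 on II had -4.08, -3.94 and -3.45, each with 5 reads or fewer in either PMW123 male library. The bin of III lost its call without PMW124 male library 2 and the bin of II without PMW123 male library 1.

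The bin at 3200001 to 3300000 on IV was lower on more reads in every male library than the other lower bins named above. It had 72 and 40 reads in PMW123 males, against 669 and 1009 in PMW124 males, or 14.1 and 19.3 per 10000 against 259 and 121 (log2 fold change -3.52, edgeR adjusted p = 0.00712). Its log2 fold change in hermaphrodites was -3.56, and it is among the 10 most-read bins. Its call was lost without either PMW123 male library, where its log2 fold change was -3.30 without library 1 and -3.75 without library 2.

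The contrast of arms with centres was measured as log2 of reads per bin in the arms over the centre. Averaged over the 5 autosomes it was 1.47 and 2.00 in PMW123 males, against 0.87 and 0.089 in PMW124 males, without overlap. The difference was 1.25, a fold of 2.39 (exact permutation p = 0.333, the smallest possible). By chromosome the difference was 1.82 on III, 1.64 on V, 1.42 on II, 0.87 on I and 0.53 on IV. On X it was 0.56 and 1.16 in PMW123 males, against 0.86 and 0.55 in PMW124 males, a difference of 0.16 with overlapping groups (exact permutation p = 0.667). It turned to -0.15 without PMW123 male library 2 and to -0.0016 without PMW124 male library 2. Whether X and the autosomes differ in this contrast was not tested.

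**Figure D4:**
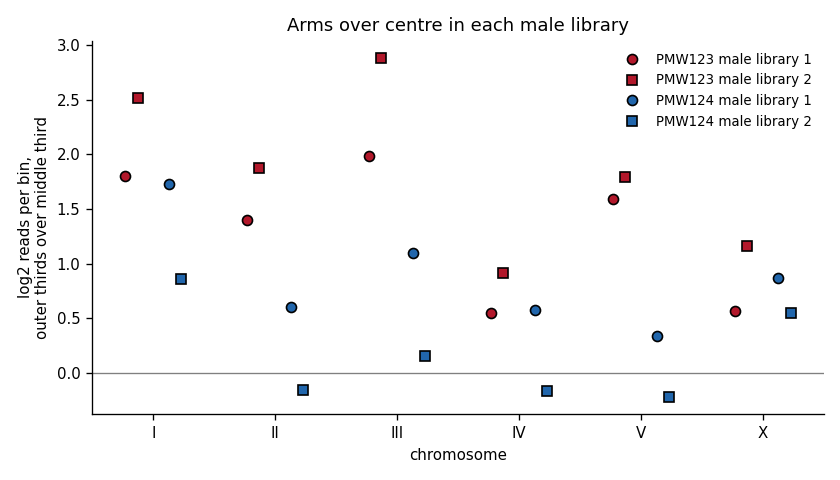
Log2 of reads per bin in the arms over the centre (vertical axis) for each chromosome and male library, with PMW123 in red left of PMW124 in blue, circles for library 1 and squares for library 2. On I, II, III and V both PMW123 libraries lie above both PMW124 libraries, and on X the groups overlap.

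The log2 level of chromosome V against the other autosomes was 0.10 and -0.0029 in PMW123 males, against -0.69 and -0.41 in PMW124 males, a difference of 0.60. These levels are on sums, and on bin medians the difference was 0.26. Chromosome V holds the bins at 2700001 and 3100001, both among the 10 most-read, in its left arm. Its left arm had 20.1 and 20.3 reads per bin per 10000 in PMW123 males, against 11.1 and 10.6 in PMW124 males, and its right arm 12.7 and 11.4 in PMW123 males, against 6.71 and 7.71 in PMW124 males. The right arm of III had 31.3 and 35.7 in PMW123 males, against 26.5 and 18.3 in PMW124 males, but none of its bins or windows was called higher. Without its 3 bins among the 10 most-read, a setting added after seeing the data, it had 10.8 and 10.6 in PMW123 males, against 10.5 and 10.9 in PMW124 males, and the groups overlapped. Chromosome III as a whole differed by 0.13 on sums and by -0.60 on bin medians, so its direction depends on the summary.

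Libraries of the same strain differed in profile. Between the 2 libraries, the chi-square per degree of freedom over autosomal bins was 2.51 in PMW123 males and 8.85 in PMW124 males, and over X bins 2.04 in PMW123 males and 3.22 in PMW124 males. Values above 1 are usual for amplified reads of separate libraries without molecular identifiers, so these are given as a description. In PMW124 males, library 1 lay above library 2 in 16 of 18 X windows (median log2 ratio 0.51) and in 0 of 27 autosomal centre windows (median -0.67). In PMW123 males, library 1 lay above library 2 in 25 of 27 centre windows (median 0.35) and in 9 of 18 X windows. The deeper library of each strain thus had the flatter profile of arm over centre. The part of depth in these differences was not tested.

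Agreement between libraries was lower on X than on the autosomes at the bin level, as a description across bins that share libraries and are not independent. The log2 share of reads correlated across autosomal bins with Pearson's r of 0.82 in PMW123 males and 0.78 in PMW124 males, and across X bins with 0.63 in PMW123 males and 0.75 in PMW124 males. Log2 ratios of PMW123 over PMW124 from the same-numbered pairs, which share no library, correlated with r of 0.21 over 178 X bins and 0.51 over 827 autosomal bins. No label says whether the numbers pair the libraries, though the authors' deposited ratios matched same-numbered pairs. The crossed pairs, which share no library either, gave 0.34 on X bins and 0.61 on autosomal bins. In windows the same-numbered pairs gave 0.37 over 18 X windows and 0.71 over 83 autosomal windows, and the crossed pairs 0.79 on X and 0.88 on the autosomes. Neighbouring bins correlated in their log2 fold change with r of 0.14 on X and 0.64 on the autosomes. The median SE of a bin was 0.75 on X and 0.60 on the autosomes, beside an SD of log2 fold changes of 1.25 on X and 1.07 on the autosomes.

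The authors' deposited ratios for PMW123 in males carry these depths. In 997 of 997 bins compared they matched, within a relative 1e-06, the mean of the 2 same-numbered pair ratios of shares. The lowest of the authors' deposited ratios above 0, 0.0191 at 10500001 to 10600000 on X, rested on 1 and 0 reads in PMW123 males, against 14 and 11 in PMW124 males. The highest finite one of the authors' deposited ratios, 8.22 at 700001 to 800000 on II, rested on 56 and 18 reads in PMW123 males, against 2 and 49 in PMW124 males, and did not pass the count test (edgeR adjusted p = 0.218). Both were chosen by the authors' deposited values. The authors' deposited table lists 5 X bins and 1 autosomal bin as infinite, 2 X bins as 0 and 1 autosomal bin as NA. The 2 X bins at 0 are those without PMW123 male reads described above, which passed the count test, and none of the infinite ones passed. Of the 171 X bins with a finite authors' deposited ratio above 0, 70 lay beyond 2-fold, of which 10 passed the count test and 65 had a library under 10 reads. On the autosomes, 303 of the 825 bins with a finite ratio above 0 in the authors' deposited table lay beyond 2-fold, of which 51 passed and 226 had such a library.

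The male comparison was set against hermaphrodites, which share no library with it. Windows moved alike, with r of 0.94 across 83 autosomal windows and 0.72 across 18 X windows, as a description. The fitted difference, males minus hermaphrodites, was above 0 in 4 of 18 X windows and 8 of 27 autosomal centre windows. In autosomal arm windows it was above 0 in 33 of 56. These counts were not tested. Of the 31 windows lower in males, 30 were lower in hermaphrodites (96.8% of the male and 75.0% of the 40 hermaphrodite windows, where 39.6% of all windows were lower). Of the 10 higher in males, 8 were higher in hermaphrodites (80.0% of the male and 47.1% of the 17 hermaphrodite windows, where 16.8% of all windows were higher). Of the 8 bins higher in males 7 were higher in hermaphrodites, and of the 55 lower 29 were lower, where 4.6% of all bins tested in hermaphrodites were higher and 9.71% lower. The difference between sexes was tested as an interaction with edgeR. It called 0 of 101 windows, with 6 at an unadjusted p under 0.05, and DESeq2 called 0 as well. Without PMW124 male library 1 it called 4 windows and without PMW123 male library 1 it called 3. Of 1000 bins it called 1 (0.100%), which was lower in males, with 47 at an unadjusted p under 0.05, and DESeq2 called 0.

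**Figure D5:**
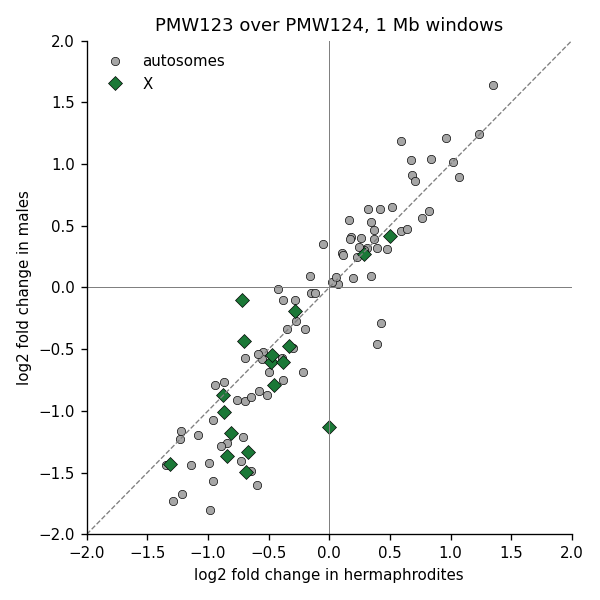
Log2 fold change of PMW123 over PMW124 in males (vertical axis) against the same in hermaphrodites (horizontal axis) for 83 autosomal windows (grey circles) and 18 X windows (green diamonds); the dashed line marks equal values. The windows run along the line, with X windows and autosomal centre windows mostly below it. X windows lie mostly below 0 in both sexes.

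The called bin was that at 11900001 to 12000000 on X. PMW123 had 0 and 0 reads per 10000 in males, and 4.44 and 4.98 in hermaphrodites. PMW124 had 4.26 and 3.96 in males, and 3.74 and 2.07 in hermaphrodites. The PMW123 male libraries thus stood alone. Its interaction had an edgeR adjusted p = 0.0166, and the call held under 6 of 13 alternatives. It was lost with DESeq2, without either PMW123 male library, without PMW124 male library 2, without PMW123 hermaphrodite library 2 and without either PMW124 hermaphrodite library. The window around it had the smallest unadjusted p of the lower windows, with log2 fold changes of -1.13 in males and -0.0043 in hermaphrodites (edgeR adjusted p = 0.578 for the difference).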

How the data were processed

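DNA marked by Dam was sequenced from whole L4 animals. The authors deposited whole-number read counts per 100 kb bin, not normalized, per the file headers, and a table of ratio values relative to PMW124. Cutadapt, Bowtie, SAMtools and the build ce10 are named in the submitters' processing notes, without roles, versions or parameters. The 4 count columns of other strains were not used. Bins carry numbers only, so positions are consecutive 100 kb steps from each chromosome start, 1-based, in ce10, and no gene was placed in a bin.

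Nuclear depth ranged from 22106 to 89872 reads per male library. Counts were scaled to the autosomal total. Bins with a mean count of at least 5 over the 4 libraries, and 1 Mb windows of 10 bins (a last one of under 5 bins joined the window before), were tested with edgeR 4.0.16 (glmQLFit, glmQLFTest, two-sided, R 4.3.3), adjusted by Benjamini-Hochberg over all features at 0.05. DESeq2 1.42.0, TMM, other filters, all 8 libraries, a replicate block and leaving out each library were alternatives. Single values per library were compared by exact permutation, and exact intervals were computed with SciPy 1.17.1. Each chromosome was cut into 3 equal parts by bin number (left arm, centre, right arm), and X also into 4. The scripts were tested on simulated data. Named bins and windows are those past the threshold without overlap and with the largest fold changes (5 and 5 overall or on autosomes, 3 and 3 on X), or the smallest p where none passed. X windows, the interaction on windows, the crossed pairing and the totals without the 10 most-read bins were added after seeing the data. The comparison and lists were chosen with earlier results of these data known.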

Additional observations from a re-analysis of the deposited data

Results flagged for a closer look

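The bin at 11900001 to 12000000 on X differed between the sexes by a tested interaction. The fitted log2 difference, males minus hermaphrodites, was -7.92 (edgeR adjusted p = 0.0166), and since both PMW123 male libraries had 0 reads, its size depends on the fit and is no bound.

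The mitochondrial bin, which enters no comparison, held more of the reads in PMW123 males (0.331% and 0.401%) than in PMW124 males (0.186% and 0.174%). The order was the same in hermaphrodites, with 0.360% and 0.461% in PMW123 and 0.211% and 0.233% in PMW124. This difference was not tested.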

How the results depend on the processing

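The X level kept its direction except against the autosomal centres (0.35, with 0.52 for the leftmost of 4 parts and 0.24 for the rest). With 1 library left out, the leftmost part ranged from -0.87 to 0.0049 (its highest value without PMW124 male library 1), and the arm contrast of X from -0.15 to 0.46, including -0.0016. The sex difference of the X level was -0.30 by medians and ranged from -0.38 to 0.23 with 1 library left out. The cause was not tested for any of these.

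The 63 bins called became 32 with TMM, 20 with DESeq2, 142 with all 8 libraries, 97 without the 10 most-read bins, and 18 to 166 with 1 library left out. TMM gave an autosomal median bin of 0.064, against -0.12. The split of higher and lower bins, 8 and 55, was 5 and 15 with DESeq2, and that of windows, 10 and 31, was 11 and 18 with TMM. The 12 X bins became 2 with TMM, 1 with DESeq2, 7 at a mean count of 20, 23 with 8 libraries and 0 to 17 with 1 left out. The 41 windows ranged from 1 to 50 with 1 left out. The 8 X windows became 2 with TMM, 4 with DESeq2, 5 without the most-read bins and 0 to 7 with 1 left out. The sex difference called 2 bins with TMM, 2 without the most-read bins, 0 with DESeq2, 0 to 2 bins and 0 to 4 windows with 1 left out. The bin at 4100001 to 4200000 on IV, not called between sexes, ranged from -3.85 to 0.050 with 1 left out, and turned without PMW124 male library 2. Its edgeR adjusted p was 0.0538, and it was called under 4 of 13 alternatives (TMM, without the most-read bins, without PMW124 male library 1 and without PMW123 hermaphrodite library 1), with adjusted p from 7.04e-05 to 1.00 over the 13.

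No label says whether the column numbers pair the libraries, though the authors' deposited ratios matched same-numbered pairs. Same-numbered libraries deviated with r = -0.13 over bins and -0.51 over windows, which cannot settle whether they were paired. The replicate block left 21 bins, 4 X bins, 11 windows and 4 X windows called. Crossed pairing gave 132 bins, 48 windows and 5 X windows. The median X bin held 3 reads in PMW123 male library 2, which limits what single X bins can show.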
